A study of Mus musculus with 15 samples.

Results

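The Krüppel-like factor genes described here were 9 members of the family (Klf2, Klf3, Klf4, Klf6, Klf7, Klf9, Klf10, Klf11 and Klf13), chosen by name from a family in which crosslink sites had already been seen. Their sites were every sense-strand position of the 6 lists that lay within these genes on GRCm38 (mm10). Of the 9 genes, 7 held at least 1 site in any list and 2, Klf4 and Klf9, held none. In the whole series 7894 genes held a sense site. Their share of all annotated genes is not given here, so 7 of 9 cannot be called high or low. The 9 genes accounted for 215 of the 123142 distinct positions in the lists. Because the members were chosen by such sites, the numbers of sites and cDNAs below are a description and carry no test.

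The study mapped where the RNA-binding protein tristetraprolin (TTP, the product of Zfp36) touches RNA by individual-nucleotide resolution crosslinking and immunoprecipitation (iCLIP), in which ultraviolet light links protein to RNA and each unique cDNA marks 1 crosslinked nucleotide. All cells were bone marrow-derived macrophages of TTP-deficient C57BL/6 mice, immortalised with c-myc and Ras oncogenes and transduced with a doxycycline-inducible construct for GFP-TTP or GFP-TTP-AA, and RNA was recovered through the GFP tag. GFP-TTP-AA carries alanine in place of the serines that the kinase MK2 phosphorylates. Every group received doxycycline for 6 h, and the groups differed in the protein and in lipopolysaccharide (LPS), which was absent (0 h) or present for 1 h or 4 h. For TTP, 2, 4 and 2 libraries were pooled in order of LPS time. For TTP-AA, 2, 3 and 2 libraries were pooled. The proteins came from a transgene in transduced lines whose number of clones is not given in the sources used here, so the groups model the protein and not the control of Zfp36 itself.

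Krüppel-like factors are transcription factors that bind GC-rich and CACCC boxes through zinc fingers at the C-terminus. Members that recruit acetyltransferases (Klf2, Klf4, Klf6, Klf7) mostly act as activators, Klf3 represses through CtBP, and Klf9, Klf10, Klf11 and Klf13 repress through Sin3a. In macrophages Klf2 is known as a restraint on inflammatory transcription and Klf6 as a promoter of it. TTP binds AU-rich elements in 3′UTRs, of which the pentamer AUUUA and the longer UAUUUAU are the usual core, and brings the mRNA to deadenylation and decay.

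The stretches of 3′UTR that carried most of the crosslinking are shown first, since the results turn on whether a site sat on an AUUUA. Each is 30 nt long, in RNA letters from 5′ to 3′, was read from the GENCODE M21 transcripts and has AUUUA in capitals. The site with most cDNAs in its list or cluster is the base after the first 15, ties going to the site nearest the stop codon. For Klf7 it is the site of the 0 h list, at nt 6067 after the stop codon, with 1 cDNA at 0 h and 1 at 1 h. The Klf7 site with most TTP-AA cDNAs at 1 h, nt 6108 with 2, lies outside the stretch shown. The 30 nt around that site hold no AUUUA.
Klf6, most cDNAs in TTP-AA at 1 h, chr13:5868487-5868516, plus strand: gcagcuacgucucuuAUUUAugccuugagg
Klf6, TTP only at 1 h, chr13:5868310-5868339, plus strand: gaAUUUAcuuuuuuuuugagaaucuuaagg
Klf6, second AUUUA stretch in TTP-AA at 1 h, chr13:5868940-5868969, plus strand: acacacaccggcuguAUUUAuuauguaaca
Klf6, TTP-AA at 1 h without the pentamer, chr13:5869209-5869238, plus strand: aauauauaaauauuuuuuuaagaagaaacu
Klf6, TTP-AA at 1 h without the pentamer, chr13:5869828-5869857, plus strand: guuuuguuuuguuuuauuguaucuggccug
Klf6, TTP-AA at 1 h near the 3′UTR end, chr13:5870255-5870284, plus strand: guuaucuaaagaaucuuuguaagauuuuug
Klf10, TTP at 1 h, chr15:38294921-38294950, minus strand: gacagugucuuuuuAUUUAuaggaguuuuu
Klf10, TTP-AA at 1 h, chr15:38295289-38295318, minus strand: uuggaacccucauuaAUUUAauugcuugga
Klf10, TTP at 0 h, chr15:38294988-38295017, minus strand: cacugugguuuuuuuguuuuuuuguuuuuu
Klf7, TTP-AA at 0 h and 1 h, chr1:64029632-64029661, minus strand: agAUUUAaaacuauuauuuguauuauauga
Klf2, TTP-AA at 1 h, chr8:72321248-72321277, plus strand: acuaugaccgauuguauuucuauaagggag

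The lists held between 19167 and 174397 cDNAs, of which between 906 and 93510 lay in 3′UTRs. At 1 h the 3′UTR cDNAs numbered 9558 for TTP and 93510 for TTP-AA, so a gene that followed the whole list had a ratio of 9.78. A locus of ribosomal RNA on chromosome 17 took between 10.4% and 32.0% of a list. Since each list is a sum over libraries, no spread between replicates could be had, and the intervals given are 95% intervals for counting error only. The lists hold the sites that passed the authors' false-discovery filter, so a count of 0 means that no site was listed and not that no cDNA was found. The header lines of the 1 h lists carry a mark for region handling that the others lack, although the descriptions state the same handling for all 6, so if the handling did differ it cannot be told apart from LPS time. At Zfp36, the deleted gene, the 1 h lists held 21 (TTP) and 131 (TTP-AA) 3′UTR cDNAs in all. According to the authors, the constructs held only the coding sequence of TTP, without its 3′UTR. The source of these cDNAs was not tested. Of 8 macrophage marker genes, 6 held 3′UTR cDNAs at 1 h, and Fcgr1 and Mertk held none, while 1 of 15 markers of other cell types, the fibroblast gene Dcn, held any cDNA (2 in all). These counts reflect binding as well as mRNA abundance, which the lists do not measure.

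Summed over the members, most cDNAs lay in 3′UTRs, and most of those came from Klf6 in TTP-AA after 1 h of LPS. Without LPS the 9 genes together held 4 3′UTR cDNAs with TTP and 3 with TTP-AA. At 1 h the TTP list held 11, at 10 sites in 2 genes, and the TTP-AA list 288, at 182 sites in 5 genes. At 4 h there were 2 with TTP and 0 with TTP-AA. The 1 h TTP-AA list was the only 1 of the 6 with more than 11 cDNAs in these 3′UTRs, and Klf6 made up 87.5% of its 288.

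**Figure D1:**
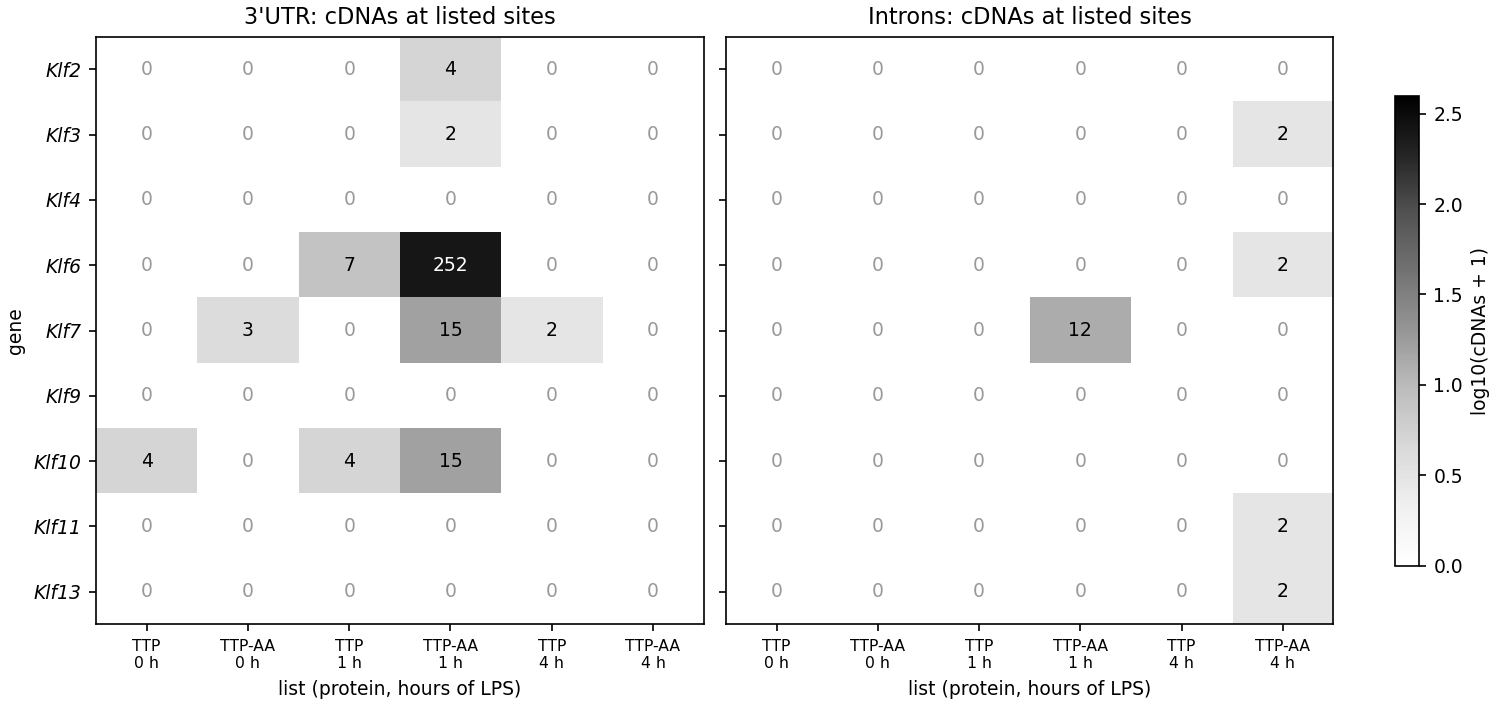
Unique cDNAs at listed sites in the 3′UTR (left) and introns (right) of the 9 Krüppel-like factor genes, 1 row per gene and 1 column per pooled list, with the count written in each cell and shaded by log10(cDNAs + 1). Klf6 in TTP-AA at 1 h, with 252 cDNAs in the 3′UTR, stands above every other cell, and the intronic cDNAs lie in the TTP-AA lists of 1 h and 4 h.

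As a share of all 3′UTR cDNAs, the family took 0.0916% (0.0356% to 0.235%) of the TTP list at 0 h, 0.115% (0.0643% to 0.206%) at 1 h and 0.221% (0.0606% to 0.801%) at 4 h. These 3 intervals overlap. For TTP-AA the share was 0.0499% (0.0170% to 0.147%) at 0 h and 0.308% (0.274% to 0.346%) at 1 h. At 4 h none of the 1000 3′UTR cDNAs of TTP-AA lay in a member (0%, interval 0% to 0.383%). That interval includes the 1 h share of TTP-AA, so a fall after 1 h was not shown. Leaving out Klf6, the 1 h share was 0.0418% in TTP and 0.0385% in TTP-AA, so the higher 1 h share of TTP-AA rested on that gene.

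At 1 h the ratio of family 3′UTR cDNAs, TTP-AA over TTP, was 26.2 (14.4 to 53.0), which was 2.68 times (1.47 to 5.42) the ratio of all 3′UTR cDNAs. Without Klf6 the ratio was 9.0 (3.23 to 34.8), or 0.9199 times (0.330 to 3.56) that of all 3′UTR cDNAs. A gene was called when its share of 3′UTR cDNAs differed by at least 2-fold between the 1 h lists, among the 2065 genes with at least 10 cDNAs over both lists and with the count behind the smaller share raised to 3. By this rule 4.60% of the genes tested were called higher in TTP-AA and 15.2% lower. Of the 9 members 3 had enough cDNAs to be tested: Klf6 was called higher, Klf10 lower, and Klf7 neither. A gene with no TTP cDNA, as 55.2% of those tested were, could be called higher only from 59 TTP-AA cDNAs upward and could not be called lower, so Klf7, with 15, could not be called. The median gene tested had 0 TTP cDNAs and 20 TTP-AA cDNAs. When the lists were scaled to all of their cDNAs instead of those in 3′UTRs, the 3 members were all called higher, Klf10 included, as were 84.5% of the genes tested, and 0 members and 0.630% of the genes were called lower.

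**Figure D2:**
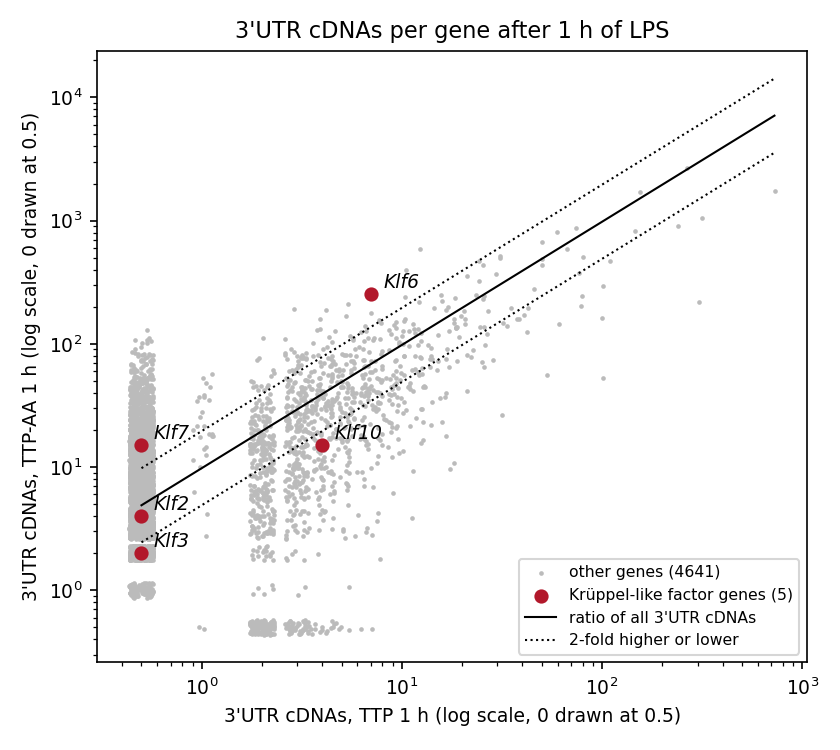
3′UTR cDNAs per gene in the 1 h lists of TTP (x axis, log scale) and TTP-AA (y axis, log scale), with 0 drawn at 0.5 and a small random shift added to the grey points. Grey points are genes with a 3′UTR cDNA in either list, red points the 5 such Krüppel-like factor genes, the solid line the ratio of all 3′UTR cDNAs (9.78) and the dotted lines 2-fold on either side. Klf6 (7 and 252 cDNAs) lies above the upper dotted line and Klf10 (4 and 15) below the lower one.

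Among the activators, Klf6 (ENSMUSG00000000078.7, chromosome 13, 5861482 to 5870394, plus strand) had by far the most cDNAs. Its 3′UTR of 3111 nt (5867284 to 5870394, 1 exon) held 0 cDNAs in both 0 h lists, 7 (TTP) and 252 (TTP-AA) in the 1 h lists, and 0 in both 4 h lists. Only the 1 h lists were above 0, and TTP-AA was higher than TTP. As shares of all 3′UTR cDNAs, the intervals of the 0 counts reached 0.0878% (TTP) and 0.0639% (TTP-AA) at 0 h. At 4 h they reached 0.422% (TTP) and 0.383% (TTP-AA). All but that of TTP-AA at 0 h extended past the 1 h share of the same protein, given below. The ratio at 1 h was 36.0 (17.2 to 90.5), and the share was 3.68 times (1.76 to 9.25) as high in TTP-AA, 0.269% against 0.0732%. In the TTP-AA list Klf6 ranked 28 of the 4468 genes with 3′UTR cDNAs, and in the TTP list 220 of 1295. Per length it held 81.0 cDNAs per kb in TTP-AA, where the median gene held 6.09, and 2.25 per kb in TTP, where the median gene held 2.22. The 7 TTP cDNAs lay at 7 different positions, whereas the 252 of TTP-AA lay at 151 positions with up to 17 cDNAs at a site, 1.67 per site against 1.53 over all 3′UTR sites of that list.

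The Klf6 sites gathered in distinct stretches of the 3′UTR. When neighbours within 15 nt were joined, the 1 h sites formed 9 clusters, 8 of them with TTP-AA sites, 2 with TTP sites and 1 with both. The cluster with most cDNAs ran from nt 1184 to nt 1248 after the stop codon and held 77 of the 252 TTP-AA cDNAs and 5 of the 7 TTP cDNAs. Its summit was at nt 1219 with 17 TTP-AA cDNAs and 1 TTP cDNA, on the first base of an AUUUA that is part of a UAUUUAU, as the first sequence above shows. The neighbouring positions nt 1218 and nt 1222 of that element held 8 and 9 TTP-AA cDNAs. The second UAUUUAU of this 3′UTR lay in a cluster from nt 1639 to nt 1701 with 21 TTP-AA cDNAs, 3 of them at its summit at nt 1672, and no TTP cDNA. Of the 7 AUUUA copies in the Klf6 3′UTR, 3 had a TTP-AA site within 20 nt and 2 a TTP site.

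Of the 252 TTP-AA cDNAs on Klf6, 147 lay in 5 clusters with no AUUUA within 20 nt of their borders, and 105 (41.7%) lay in 3 clusters that had one. The largest cluster without an AUUUA ran from nt 1818 to nt 1944 with 62 cDNAs and a summit at nt 1941, in a run of A and U that lacks the pentamer. The next ran from nt 2960 to nt 3086, close to the annotated 3′UTR end, with 59 cDNAs and at most 3 at a site. A shorter one, from nt 2543 to nt 2566, held 17 cDNAs in a stretch rich in U and G. None of the clusters without an AUUUA held a TTP cDNA. The remaining 2 TTP cDNAs were at nt 1042 and nt 1052, beside the AUUUA at nt 1029 and a run of U, where TTP-AA had no site and whose nearest TTP-AA site lay up to 142 nt away.

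**Figure D3:**
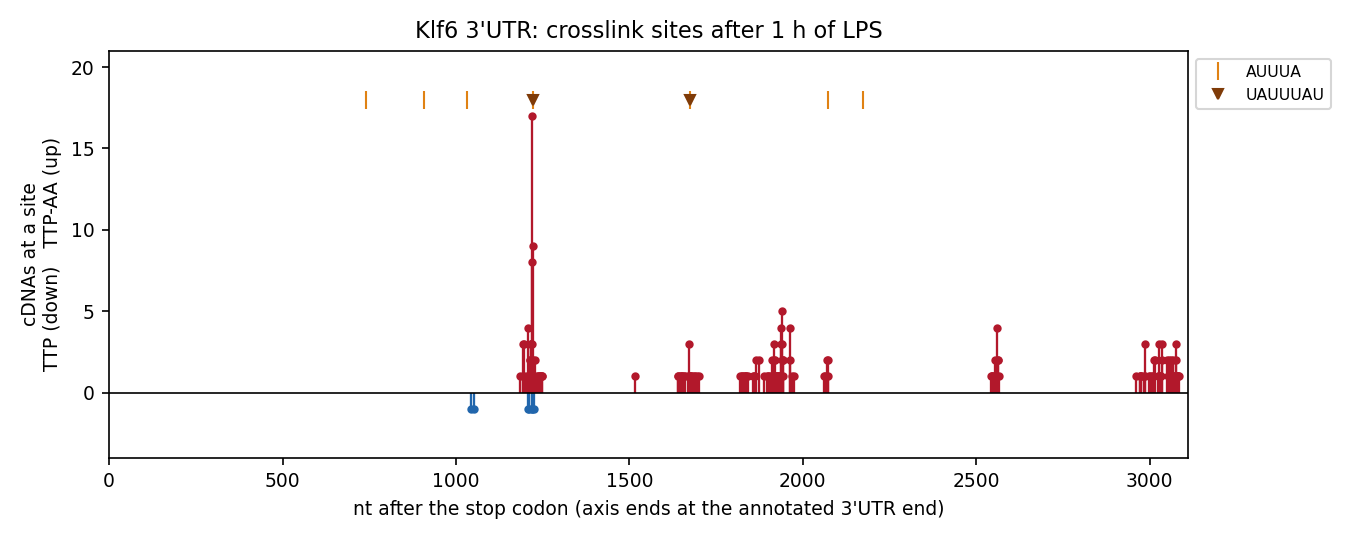
Crosslink sites in the Klf6 3′UTR after 1 h of LPS: nt after the stop codon (x axis) and unique cDNAs per site (y axis), with TTP-AA drawn upward in red and TTP downward in blue. Orange ticks mark AUUUA and brown triangles UAUUUAU. The tallest TTP-AA site, with 17 cDNAs, stands at the first UAUUUAU, where 5 of the 7 TTP cDNAs also lie, and several groups of TTP-AA sites stand away from any tick.

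Counted by site, 33 of the 151 TTP-AA sites on Klf6 had an AUUUA wholly within 20 nt, 21.9% (16.0% to 29.1%), against 34.6% (34.2% to 34.9%) over the 61183 TTP-AA 3′UTR sites of all genes. Weighted by cDNAs the Klf6 share was 32.9%, against 40.5% for all genes. Only 8.33% of the nucleotides in the Klf6 3′UTR were that close to an AUUUA. The listed nucleotide was a U at 66.2% (58.4% to 73.3%) of the Klf6 sites and at 61.6% of the sites of all genes, while U made up 31.8% of this 3′UTR. Sites of 1 mRNA are not independent of each other, so these intervals are narrower than the true uncertainty.

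The genes whose 3′UTR cDNAs were spread over the 6 lists most like those of Klf6 were Cxcl10, Nfkbiz and Plek, by the sum of absolute differences of the 6 fractions among 162 genes with at least 100 cDNAs. The sum was 0.00787 for Cxcl10 (13 cDNAs in TTP and 549 in TTP-AA at 1 h), 0.00796 for Nfkbiz (12 and 375) and 0.0115 for Plek (4 and 184). Nfkbiz and Plek had no 3′UTR cDNA in the other 4 lists, and Cxcl10 had 1, in TTP-AA at 4 h. The distances therefore rest on the part of a gene's cDNAs in the 1 h TTP list. It was 2.70% for Klf6, 2.31% for Cxcl10, 3.10% for Nfkbiz and 2.13% for Plek. For Klf6 it comes from only 7 cDNAs, so which genes are nearest, and in what order, is uncertain.

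Klf7 (ENSMUSG00000025959.13, chromosome 1, 64029447 to 64122282, minus strand), known mainly from neuronal and fat cell differentiation, has the longest 3′UTR of the 9 (6266 nt, 64029447 to 64035712) and the most AUUUA copies, 18. In order of LPS time, its 3′UTR held 0, 0 and 2 cDNAs in the TTP lists and 3, 15 and 0 in the TTP-AA lists. Only the 1 h TTP-AA list held more than 3, and since no TTP site was listed at that time, no ratio is given. Of the 15 cDNAs 13 (86.7%, interval 62.1% to 96.3%) fell in the final 300 nt, which make up 4.79% of its 3′UTR. The 3 cDNAs at 0 h fell in the same place, between nt 6067 and nt 6075, each within 2 nt of a 1 h site and 1 of them at the same nucleotide. The 2 TTP cDNAs at 4 h lay at nt 825 and nt 826, 3170 nt or more from any TTP-AA site of 1 h.

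At Klf7, AUUUA was close to 6 of the 13 TTP-AA sites at 1 h, and none of these sites had one within 10 nt. Of the 18 AUUUA copies 3 had a TTP-AA site within 20 nt, and the single UAUUUAU, at nt 5912, had none. Klf7 was also the only member with intronic sites at 1 h: 12 TTP-AA cDNAs at 12 positions, in 3 groups at 1505 to 1508 nt, 8110 to 8113 nt and 13770 to 13782 nt from the gene start, with no TTP cDNA there.

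Klf2 (ENSMUSG00000055148.7, chromosome 8, 72319033 to 72321656, plus strand), which maintains quiescence in endothelial cells and T cells, held 4 3′UTR cDNAs in TTP-AA at 1 h and none in the other 5 lists. They lay at 4 positions between nt 344 and nt 355 of its 737 nt 3′UTR. The only AUUUA of this 3′UTR, which is part of a UAUUUAU, had no site within 20 nt. Klf4, one of the factors that reprogramme somatic cells to pluripotency, held no site in any list over its whole gene (chromosome 4, 55527143 to 55532466). Its 982 nt 3′UTR has 1 AUUUA and no UAUUUAU.

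Klf3 (chromosome 5, 64803388 to 64832901), the member that represses through CtBP, held 2 3′UTR cDNAs in TTP-AA at 1 h, at nt 252 and nt 254 of a 3743 nt 3′UTR, and none in the other lists. Both positions were U in a run of U, and none of the 7 AUUUA copies had a site within 20 nt. It also held 2 intronic cDNAs in TTP-AA at 4 h.

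Among the repressors that work through Sin3a, Klf10 (ENSMUSG00000037465.10, chromosome 15, 38291463 to 38300706, minus strand), first described as an early gene induced by TGF-β, was the only member with 3′UTR cDNAs. In order of LPS time, it held 4, 4 and 0 cDNAs in the TTP lists and 0, 15 and 0 in the TTP-AA lists. TTP-AA was higher at 1 h and TTP at 0 h, with few cDNAs in each case. The 1 h ratio was 3.75 (1.19 to 15.5), below that of all 3′UTR cDNAs, and the share was 0.383 times as high in TTP-AA as in TTP, with an interval that includes 1 (0.122 to 1.59). Klf10 thus passed the 2-fold rule on 4 TTP cDNAs only, in a direction in which 15.2% of the genes tested were called.

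The lists placed TTP and TTP-AA on different parts of the Klf10 3′UTR (1492 nt, 38294413 to 38295904). The 4 TTP cDNAs at 1 h lay at nt 968, nt 969 and nt 970, on the single UAUUUAU of this 3′UTR, where TTP-AA had none. Of the 15 TTP-AA cDNAs, 10 lay between nt 602 and nt 610, on and just after another AUUUA, 4 between nt 914 and nt 922 in a run of U, and 1 at nt 1347. The nearest TTP-AA site was 46 nt from a TTP site. The 4 TTP cDNAs at 0 h lay between nt 903 and nt 906, in the stretch of U broken by single G shown above, 62 nt or more from the TTP sites of 1 h and within 15 nt of TTP-AA sites of 1 h. Whether cDNAs below the filter lay at the positions of the other protein was not tested.

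**Figure D4:**
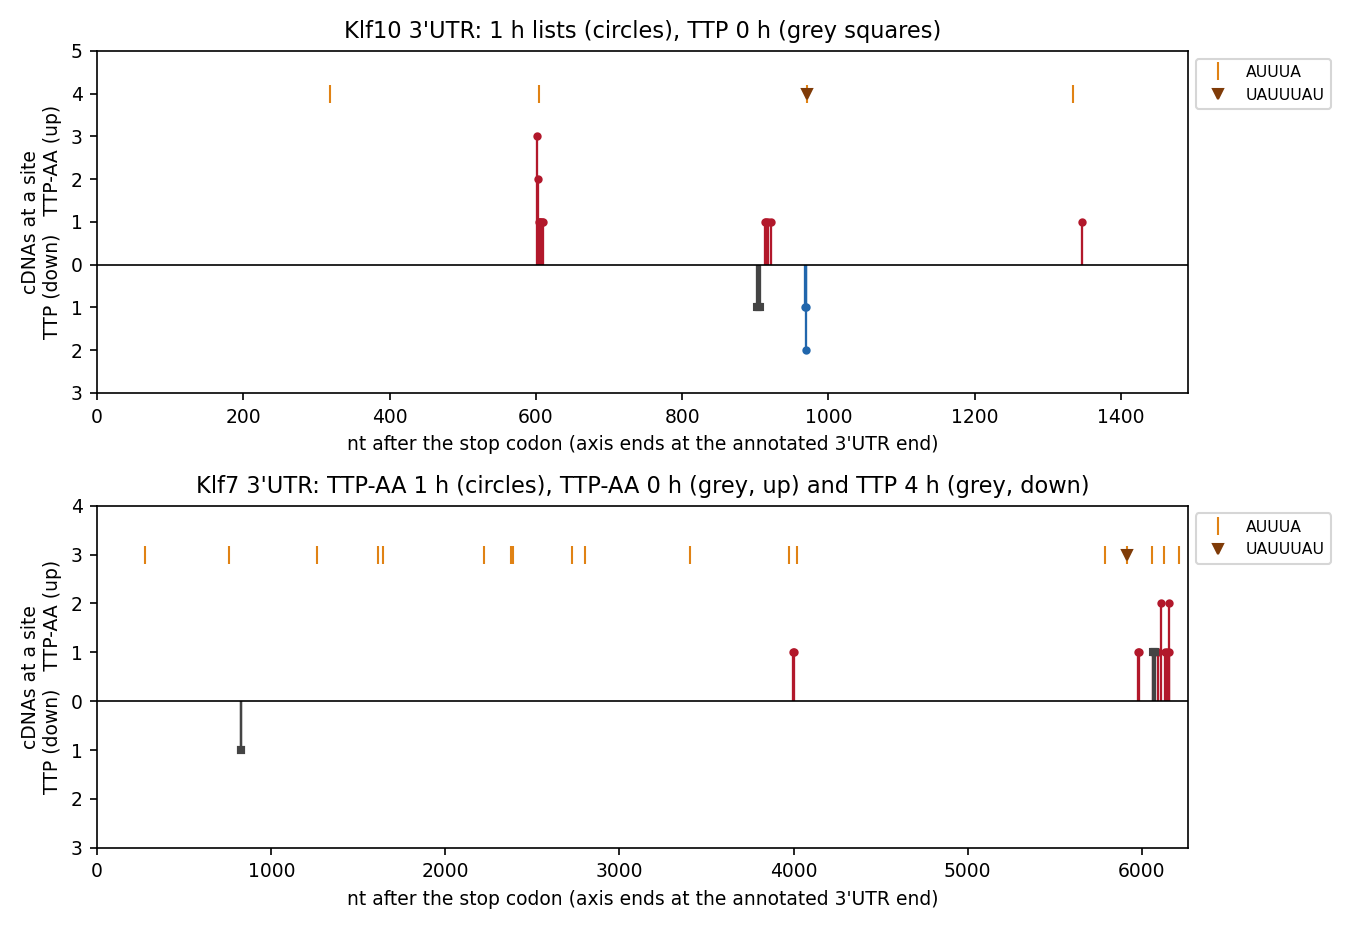
Crosslink sites in the 3′UTRs of Klf10 (top) and Klf7 (bottom): nt after the stop codon (x axis) and unique cDNAs per site (y axis), with TTP-AA drawn upward and TTP downward, circles for 1 h and grey squares for the other times named in each title. Orange ticks mark AUUUA and brown triangles UAUUUAU. In Klf10 the TTP sites of 1 h stand on the UAUUUAU and the TTP-AA sites elsewhere, and in Klf7 most TTP-AA cDNAs stand near the 3′UTR end.

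The other members of this group had no 3′UTR site. Klf9, a target of glucocorticoid and thyroid hormone receptors (chromosome 19, 23141226 to 23168134), held no site in any list. Its 3222 nt 3′UTR has 8 AUUUA and 0 UAUUUAU copies, where that of Klf6 has 7 and 2. Klf11 (chromosome 12, 24651274 to 24662789), a close relative of Klf10 that TGF-β also induces, and Klf13 (chromosome 7, 63886351 to 63938915), a factor known for activating the chemokine gene Ccl5 in T cells, held 2 cDNAs each, in introns and in TTP-AA at 4 h only. At that time and in that protein Klf3 and Klf6 also held 2 intronic cDNAs each, so the 8 cDNAs of the family in this list were all intronic, in 4 genes. In the whole list 18.95% of the cDNAs in protein-coding genes were in 3′UTRs at that time, against 85.6% in TTP-AA at 1 h.

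Taken over regions, 11 of 11 family cDNAs in TTP at 1 h were in 3′UTRs, where 37.4% of the cDNAs in all protein-coding genes were. In TTP-AA it was 288 of 300, 96.0% (93.1% to 97.7%), against 85.6%. No member had a listed site in its coding sequence or 5′UTR, none had a site on the opposite strand within the gene, and none had a site in the 1000 nt downstream. No sense site within a member was assigned to another gene.

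The pentamer was near 9 of the 10 TTP sites of the family at 1 h (90.0%, interval 59.6% to 98.2%), against 37.7% (36.6% to 38.9%) of the 6775 TTP 3′UTR sites of all genes. It was near 47 of the 182 TTP-AA sites (25.8%, interval 20.01% to 32.6%), and without Klf6 near 14 of 31 (45.2%, interval 29.2% to 62.2%). The 10 TTP sites lay in 3 stretches of 2 genes, so they amount to fewer than 10 independent observations. In the 5 members with TTP-AA sites, 8.70% of the 3′UTR nucleotides were as close to an AUUUA. Of the 53 AUUUA copies in the 9 3′UTRs, 8 had a TTP-AA site within 20 nt and 3 a TTP site. Of the 6 UAUUUAU copies, 2 had a TTP-AA site (both in Klf6) and 2 a TTP site (1 in Klf6 and 1 in Klf10).

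The positions of the proteins were compared next. At 1 h, 5 of the 10 TTP sites had a TTP-AA site within 15 nt (50%, interval 23.7% to 76.3%), against 76.6% (75.6% to 77.6%) of the TTP 3′UTR sites of all genes, and whether these shares differ was not tested. It was 5 of 7 in Klf6 and 0 of 3 in Klf10. Within 300 nt of the 3′UTR end lay 73 of the 288 TTP-AA cDNAs (25.3%, interval 20.7% to 30.7%) and 0 of the 11 TTP cDNAs, against 43.5% and 42.0% over all genes. In the 5 members with TTP-AA sites these nucleotides made up 9.77% of the 3′UTRs. That share was not computed for all genes, so the values over all genes are not adjusted for 3′UTR length. Klf6 gave 59 of the 73 and Klf7 13.

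Other genes of the family and its partners were read from lists of names. Of the other 8 Krüppel-like factor genes, 7 (Klf1, Klf5, Klf8, Klf12, Klf14, Klf15 and Klf17) held no cDNA in any list, and Klf16 had 3′UTR cDNAs at 1 h only, 2 with TTP and 4 with TTP-AA. Of the 9 related Sp factors, which bind the same GC boxes, 3 reached 10 cDNAs over both lists: Sp1 with 0 TTP and 33 TTP-AA cDNAs at 1 h, Sp2 with 2 and 16, and Sp3 with 0 and 29. Sp2 was not called, and Sp1 and Sp3, with no TTP cDNA and under 59 TTP-AA cDNAs, could not be called in either direction. Without LPS Sp3 had 9 cDNAs with TTP and 3 with TTP-AA. Of the 9 cofactors, 4 reached 10 cDNAs: the corepressor Ctbp1 with 2 and 16, the deacetylase Hdac2 with 5 and 48, the acetyltransferase Ep300 with 0 and 25, and the ubiquitin ligase Wwp1 with 0 and 15. Ctbp1 and Hdac2 were not called, and Ep300 and Wwp1 could not be called, for the same reason as Sp1. The Hdac2 share was 0.981 times (0.393 to 3.16) as high in TTP-AA as in TTP, close to that of the whole list. The 252 TTP-AA cDNAs of Klf6 exceeded the 78 of the 9 Sp factors and the 112 of the 9 cofactors together.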

How the data were processed

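iCLIP was performed on 15 samples in 6 groups. Each deposited list gives a score per position: a whole number of unique cDNAs, its sign the strand. The authors split the reads by the fixed barcode bases, used the random ones to drop PCR duplicates, aligned unique reads to mm10 (GRCm38) with Bowtie and called the base preceding a read the crosslink site. Libraries were summed per group, and sites had to pass the false-discovery filter of iCount. No further normalisation was applied.

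Sites were assigned in Python 3.11.15 (numpy 2.4.6, pandas 2.3.3, scipy 1.17.1, matplotlib 3.10.9) to GENCODE M21 regions in the order 3′UTR, coding sequence, 5′UTR, non-coding exon, intron and intergenic. Positions are 1-based, and 3′UTR positions count from the base after the stop codon of the transcript with the longest 3′UTR. Shares have Wilson and ratios exact binomial 95% intervals. The count behind the smaller share was raised to 3 before a 2-fold call, so that a call cannot come from the replacement itself, which narrows the planned wording (counts under 3 set to 3). No test was made, since the lists pool replicates. The named genes were all 9 members, the rest of the family, Sp factors and cofactors with at least 10 3′UTR cDNAs at 1 h (Klf16, Klf1 and the other genes of the family without cDNAs were named to account for them), 3 genes most like the member with most cDNAs, and Zfp36. Dcn, Fcgr1 and Mertk were named after their values were seen. The members and lists were chosen with earlier results of these data known. The functions were tested on simulated data.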

Additional observations from a re-analysis of the deposited data

Results flagged for a closer look

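Klf10 and Klf7 were the members whose difference between the proteins had opposite signs at different LPS times. The 3′UTR cDNAs of Klf10, TTP-AA minus TTP, came to -4 at 0 h and to 11 at 1 h. Those of Klf7 came to 3 at 0 h, 15 at 1 h and -2 at 4 h. Each value comes from 1 pooled list per protein, so the difference between times was not tested.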

How the results depend on the processing

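Of 53 alternative values for 17 results, 34 stayed within the counting interval (or within 1.5 times, for counts) and 19 moved. Leaving out Klf6 moved the family ratio to 9.0, the share ratio to 0.9199, the 1 h shares to 0.0418% (TTP) and 0.0385% (TTP-AA), sites near AUUUA to 100% (TTP) and 45.2% (TTP-AA), and TTP sites with a TTP-AA site nearby to 0%. With sites of at least 2 cDNAs the ratio was 79.0 and the share ratio 6.84. The share ratio was 14.9 scaled to all cDNAs and 11.9 scaled to those outside the ribosomal RNA locus. Of all cDNAs of the 1 h lists, 9.63% (TTP) and 53.6% (TTP-AA) lie in 3′UTRs. Scaled to all cDNAs, 3 members were called higher and 0 lower (84.5% and 0.630% of all genes), and Klf10 turned from lower to higher. A pseudocount of 0.5 called 2 higher (57.7% of all genes), and a minimum of 20 cDNAs, which Klf10 does not reach, called 0 lower (13.7% of all genes). With counts under 3 set to 3 in both lists, the planned wording read literally, Klf6 and Klf10 kept their calls, with 38.3% of all genes called lower. The narrower main rule departs from that wording, and the literal reading was added as an alternative after seeing the data. AUUUA within 10 nt was near 15.9% of TTP-AA and 60% of TTP sites, against 23.3% and 27.6% over all genes. Within 50 nt it was near 39.6% of TTP-AA and 100% of TTP sites, against 51.1% and 50.9%. Weighted by cDNAs the TTP-AA share was 35.1%. No paired analysis was possible because the lists pool the replicates, and for the same reason no replicate could be left out. Depth limits every member, and Klf6 in every list but TTP-AA at 1 h. None of the others had over 15 3′UTR cDNAs in any list, and Klf6 had 7 in TTP at 1 h.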
